A study of Mus musculus with 6 samples.

Results

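The genes described here serve the stress response of the endoplasmic reticulum (ER), the compartment where secreted and membrane proteins fold. They comprise the transcription factor Atf4 and genes that it or its partners activate, the chaperones and folding enzymes of the ER, the machinery of ER-associated degradation, and the ER stress sensors with Xbp1. They were taken by symbol from a list of 38 genes, of which 36 were measured among 22180 genes. Pdia4 was carried only by a probe set with several symbols and Pycr1 by no listed probe set, so both were not analysed here. Of the 36, 15 belonged to the ATF4 branch (8 regulators and 7 enzymes of amino acid and one-carbon metabolism), 13 were ER chaperones and folding enzymes, 4 acted in ER-associated degradation and 4 were sensors or Xbp1.

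Cells were obtained from gliomas of 6 mice by magnetic sorting for CD105 (endoglin, the product of Eng), and each mouse gave 1 Affymetrix array. All 6 mice carried Pfn1 fl/fl:Y129F, that is, floxed alleles of the actin-binding protein profilin 1 together with its Y129F form, in which tyrosine is replaced by phenylalanine. Mice 1, 3 and 4 also carried Tie2-Cre, a recombinase driven by the promoter of Tek (Tie2), which is active in endothelial cells and also in blood cells. Mice 6, 7 and 10 had no Cre. Before RNA was taken, the cells of both groups were held for 12 h in glioma-conditioned medium. The series asks how phosphorylation of profilin 1 bears on gene expression in these cells. Age and tumor line are not given in the sources used here, and how Cre alters the Y129F allele is not stated either.

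As background, unfolded protein in the ER is sensed by PERK (Eif2ak3), IRE1 (Ern1) and ATF6. PERK, like the other kinases of the integrated stress response, phosphorylates the translation initiation factor eIF2, which lowers protein synthesis but favours translation of Atf4 mRNA, and ATF4 then activates genes for amino acid synthesis, amino acid uptake and tRNA charging. IRE1 splices Xbp1 mRNA, and spliced XBP1 and cleaved ATF6 activate ER chaperones and degradation factors. The kinases GCN2, PKR and HRI can raise ATF4 without ER stress, so the ATF4 branch and the chaperones are commonly read side by side. Arrays report mRNA and neither the splicing of Xbp1 nor the amount of ATF4 protein.

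The arms differ in the DNA letters next to their start sites, which is why these sequences are shown before the expression values. The ER stress response element (ERSE), spelled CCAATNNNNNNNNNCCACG, is read by ATF6 and XBP1 with NF-Y, and the C/EBP-ATF response element (CARE), spelled TGATGNAA, is read by ATF4 with C/EBP partners. Promoter windows of 300 bases, 250 before and 50 after the start site, came from RefSeq (GRCm38.p6) and were searched on both strands; 35 of the 38 listed genes had an entry, and Manf, Hyou1 and Atf6 had none. ERSE occurred in 39 of 32851 promoters (0.119%), or 37 of 27025 genes (0.137%). It was held by 7 of the 12 chaperone genes with an entry (58.3%). It occurred in 0 of the 16 ATF4 branch genes. The elements of the chaperones, with the fixed letters in capitals and read in the orientation of the motif, were as follows.
Hspa5: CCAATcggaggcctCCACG
Hsp90b1, distal: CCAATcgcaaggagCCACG
Hsp90b1, proximal: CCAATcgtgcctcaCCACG
Calr: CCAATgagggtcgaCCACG
Canx: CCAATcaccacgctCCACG
Pdia6: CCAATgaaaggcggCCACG
Dnajc3: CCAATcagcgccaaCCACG
Creld2: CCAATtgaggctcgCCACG
Counted from the start site, with no base 0, the first base of these elements lay between -212 (distal element of Hsp90b1) and -65 (Hspa5). Syvn1, of the degradation machinery, held a further ERSE at -44. The related element ERSE-II, ATTGG and CCACG with 1 base of any kind between them, occurred in 12 of 32851 promoters (0.0365%) and, among the listed genes, in Dnajb11 and Herpud1.

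CARE occurred in 1304 of 32851 promoters (3.97%), or 1219 of 27025 genes (4.51%). It was held by 5 of the 16 ATF4 branch genes (Asns, Pycr1, Chac1, Nupr1 and Trib3) and by 0 of the 12 chaperone genes. Herpud1 held both CARE and ERSE-II. The core of the unfolded protein response element, TGACGTG, occurred in 661 promoters (2.01%) and among the listed genes in Hspa5. The cyclic AMP response element, TGACGTCA, occurred in 588 (1.79%) and among the listed genes in Ppp1r15a. Neither spelling overlaps CARE, and a match of letters is a description and not a binding site. The windows of Hspa5 (chr2:34771840-34772139, plus strand), Asns (chr6:7693160-7693459, minus strand) and Herpud1 (chr8:94386179-94386478, plus strand) are printed as examples of a chaperone promoter, an ATF4 target promoter and a promoter with an element of each kind, 5′ to 3′ on the gene's strand with the elements in capitals.
Hspa5: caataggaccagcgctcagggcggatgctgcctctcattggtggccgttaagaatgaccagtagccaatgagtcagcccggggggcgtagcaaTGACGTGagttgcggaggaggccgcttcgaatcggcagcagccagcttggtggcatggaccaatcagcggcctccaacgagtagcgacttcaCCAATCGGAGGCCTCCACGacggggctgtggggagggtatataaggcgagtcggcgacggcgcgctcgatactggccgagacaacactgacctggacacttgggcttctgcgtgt
Asns: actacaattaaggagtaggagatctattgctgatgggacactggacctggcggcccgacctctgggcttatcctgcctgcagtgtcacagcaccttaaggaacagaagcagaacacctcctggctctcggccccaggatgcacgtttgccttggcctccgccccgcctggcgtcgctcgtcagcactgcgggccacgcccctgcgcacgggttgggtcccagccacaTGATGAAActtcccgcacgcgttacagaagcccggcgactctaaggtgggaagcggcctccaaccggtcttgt
Herpud1: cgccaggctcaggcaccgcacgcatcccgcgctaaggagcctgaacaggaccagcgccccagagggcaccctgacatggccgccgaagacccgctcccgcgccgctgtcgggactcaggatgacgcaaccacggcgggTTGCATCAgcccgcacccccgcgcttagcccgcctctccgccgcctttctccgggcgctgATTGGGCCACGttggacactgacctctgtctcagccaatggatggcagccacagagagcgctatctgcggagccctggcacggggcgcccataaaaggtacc
In Hspa5 the core element of the unfolded protein response starts at -157 and ERSE at -65. In Asns, CARE starts at -23. In Herpud1, CARE lies on the opposite strand at -112 and ERSE-II starts at -52.

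The arrays were alike in overall level, with medians of 6.64 to 6.69 log2, and correlated at 0.994 to 0.996 within groups and 0.986 to 0.988 between them. Pfn1 lay at 12.41, 12.41 and 12.42 log2 with Tie2-Cre and at 12.38, 12.34 and 12.39 without Cre, a difference of 0.04 (SE 0.062, limma adjusted p 0.776), so the level of its mRNA gave no check of the genotype labels. Xist, the RNA of the inactive X chromosome, spanned 5.36 to 6.06 log2 in the Tie2-Cre mice and 11.16 to 11.44 in the others, so that sex and Cre cannot be told apart in any comparison below. The sorting antigen Eng was at 11.72 to 12.09 log2 in all mice and fell by 0.30 with Tie2-Cre (SE 0.064, limma adjusted p 0.0217), and was the 1 lower gene of the 12 endothelial markers. The 1 higher was Flt1, a VEGF receptor, at 8.24, 8.44 and 9.35 log2 with Tie2-Cre and at 7.55, 7.69 and 7.47 without (change 1.11, SE 0.25, limma adjusted p 0.0272). The other 10, among them Pecam1 (6.08 to 6.43), Cdh5 (6.61 to 7.06) and Tek (5.45 to 6.03), lay between 4.09 and 7.06 in all mice. The endothelial list averaged 6.64 to 6.83 log2 with Tie2-Cre and 6.67 to 6.70 without Cre. Of the 8 pericyte and smooth muscle markers 5 were higher with Tie2-Cre (list mean 10.37 to 10.62 against 9.96 to 9.98 log2), and of the 8 macrophage markers 3 were lower (6.40 to 6.51 against 6.70 to 6.79). Of the 8 fibroblast markers 3 were higher (Dpt by 3.54, Pdgfra by 1.65 and Lum by 1.27) and Dcn fell by 0.76, and the list averaged 11.07 to 11.26 against 10.46 to 10.50. Of the 8 mesothelial and epithelial markers 3 were lower (7.14 to 7.32 against 7.77 to 7.93), and the 7 plasma and B cell markers averaged 6.10 to 6.18 against 6.11 to 6.16 log2. The part of these cell types in the results below was not tested, and in such bulk samples fewer cells of a type and less RNA per cell cannot be told apart.

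The question put to the data was whether the ATF4 branch and the ER chaperones changed together between Tie2-Cre and no Cre cells. Atf4 and Mthfd2 were higher with Tie2-Cre, Shmt2 and Ern1 were lower, and no chaperone passed the test. A call required a Benjamini-Hochberg adjusted p under 0.05 over all genes in limma, and each change is the mean log2 value of the 3 Tie2-Cre mice minus that of the 3 no Cre mice, given with its standard error (SE). Of the 36 genes 4 were called (11.1%), 2 higher and 2 lower, where 12.0% of all 22180 genes were called, 4.78% higher and 7.17% lower. The share among these genes was thus near the background. The values of the groups did not overlap in 19 of the 36 genes, 7 higher and 12 lower, against 31.0% of all genes, 13.6% higher and 17.5% lower. The median standard deviation (SD) of the 36 genes was 0.035 without Cre and 0.086 with Tie2-Cre, against 0.089 and 0.10 over all genes. The median change of the 36 genes was -0.04, and that of all genes -0.0042.

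**Figure D1:**
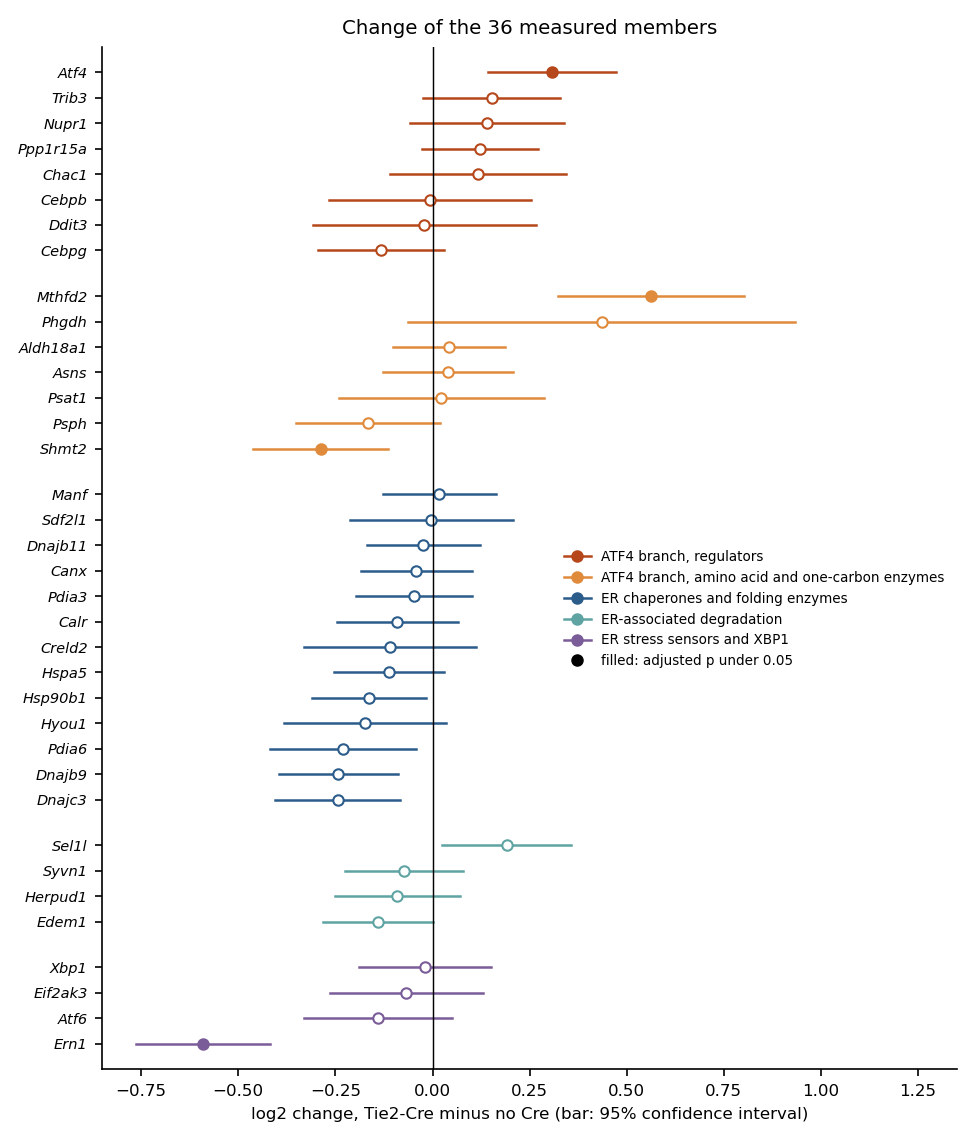
Log2 change of each of the 36 measured genes, Tie2-Cre minus no Cre, with its 95% confidence interval from limma, coloured by role; filled points passed an adjusted p of 0.05. Filled points are Atf4 and Mthfd2 to the right of 0 and Shmt2 and Ern1 to the left, and 12 of the 13 chaperones sit left of 0 with open points.

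Atf4 itself, the transcription factor at the head of the branch, lay at 8.82, 8.91 and 8.98 log2 in Tie2-Cre mice 1, 3 and 4 and at 8.57, 8.56 and 8.65 in no Cre mice 6, 7 and 10. All Tie2-Cre mice were above all no Cre mice. The change was 0.31 (SE 0.071, 95% interval 0.14 to 0.47, limma adjusted p 0.0287), which is 23.8% more signal. The call was lost when mouse 3, 4, 6, 7 or 10 was left out, and the adjusted p ranged from 0.00988 to 0.0977 over all alternatives.

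The other 7 regulators did not pass. Ddit3 encodes CHOP, the partner of ATF4 in prolonged stress, and lay at 8.47, 8.90 and 8.91 log2 with Tie2-Cre and at 8.74, 8.89 and 8.71 without, so the groups overlapped (change -0.02, 95% interval -0.31 to 0.27, limma adjusted p 0.946). Trib3, a pseudokinase that restrains ATF4, differed by 0.15 (SE 0.076, adjusted p 0.271 by limma), and the glutathione-cleaving enzyme Chac1 by 0.12 (SE 0.098, adjusted p 0.539 by limma). In 3 of these 7 genes the mice of the groups did not overlap, as in 31.0% of all genes (13.6% higher and 17.5% lower). Nupr1, a small stress-induced chromatin protein, lay at 10.79, 10.84 and 11.06 with Tie2-Cre and at 10.74, 10.78 and 10.75 without. Ppp1r15a encodes GADD34, which directs dephosphorylation of eIF2, and lay at 8.50, 8.46 and 8.49 against 8.33, 8.42 and 8.33. Cebpg, a C/EBP partner of ATF4, was apart in the other direction, at 9.17, 9.23 and 9.34 against 9.36, 9.38 and 9.40. The differences were 0.14, 0.12 and -0.13, with limma adjusted p of 0.376, 0.296 and 0.298. Cebpb, another C/EBP factor, differed by -0.0070 (SE 0.11). The median over the 8 regulators was 0.12.

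Among the enzymes, the mitochondrial folate enzymes moved in opposite directions. Mthfd2, which oxidises methylene-tetrahydrofolate in mitochondria, lay at 8.98, 9.20 and 9.33 log2 in Tie2-Cre mice 1, 3 and 4 and at 8.73, 8.54 and 8.55 in the no Cre mice. Every Tie2-Cre mouse was above every no Cre mouse. The change was 0.56 (SE 0.10, 95% interval 0.32 to 0.80, limma adjusted p 0.0113), or 47.7% more signal, and the call held when any single mouse was left out (highest adjusted p 0.0481). Shmt2, which moves a one-carbon unit from serine to tetrahydrofolate in the same compartment, lay at 9.80, 9.96 and 9.92 with Tie2-Cre and at 10.14, 10.13 and 10.26 without. Here all Tie2-Cre mice were below all no Cre mice. Shmt2 fell by 0.29 (SE 0.075, 95% interval -0.46 to -0.11, limma adjusted p 0.0453), which is a signal that dropped by 18.1%. That call was lost when any 1 of the 6 mice was left out (adjusted p 0.0664 to 0.143) and when the arrays were centred on their medians (0.0558); its adjusted p spanned 0.00901 to 0.143 over the alternatives run.

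In Phgdh and Psat1, of the serine pathway, Tie2-Cre mouse 4 stood apart. Phgdh, the first enzyme of serine synthesis, lay at 8.01, 7.94 and 8.84 log2 in Tie2-Cre mice 1, 3 and 4 and at 7.84, 7.90 and 7.75 without Cre. Mouse 4 lay 0.87 above the mean of mice 1 and 3, which were 0.067 apart, and the groups did not overlap. The change of 0.44 did not pass (SE 0.22, 95% interval -0.06 to 0.93, limma adjusted p 0.266), and without mouse 4 it was 0.15 (adjusted p 0.327). Psat1, the next enzyme, lay at 8.93, 8.85 and 9.30 with Tie2-Cre and at 8.97, 9.04 and 9.00 without. Mouse 4 was again the highest, while mice 1 and 3 were below all no Cre mice, and the change turned from 0.02 to -0.11 without mouse 4. Psph, the last enzyme, lay at 7.55, 7.69 and 7.79 with Tie2-Cre and at 7.78, 7.87 and 7.88 without. It differed by -0.17 (SE 0.080, limma adjusted p 0.250) with overlapping groups.

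Asns, asparagine synthetase and a standard reporter of ATF4 activity, lay at 10.47, 10.48 and 10.63 log2 with Tie2-Cre and at 10.48, 10.53 and 10.47 without Cre. The groups overlapped, and the change was 0.04 (95% interval -0.13 to 0.21, limma adjusted p 0.802), -0.013 without mouse 4. Aldh18a1, which makes the precursor of proline, differed by 0.04 (limma adjusted p 0.746), with the groups apart. Over the whole branch 2 of 15 genes were higher, 1 was lower and 12 did not pass. That was 20% called, where 12.0% of all genes were called, 4.78% higher and 7.17% lower. Groups were apart in 8 of the 15, 6 higher and 2 lower, against 31.0% of all genes, 13.6% higher and 17.5% lower. The median change of the branch was 0.042, and it was 0.083 without mouse 1 and 0.11 without mouse 3. The 4 measured genes with a CARE in their windows differed by 0.04 to 0.15 between the groups, and none is among the called genes named above; the windows of Atf4, Mthfd2 and Shmt2 held none of the elements searched.

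**Figure D2:**
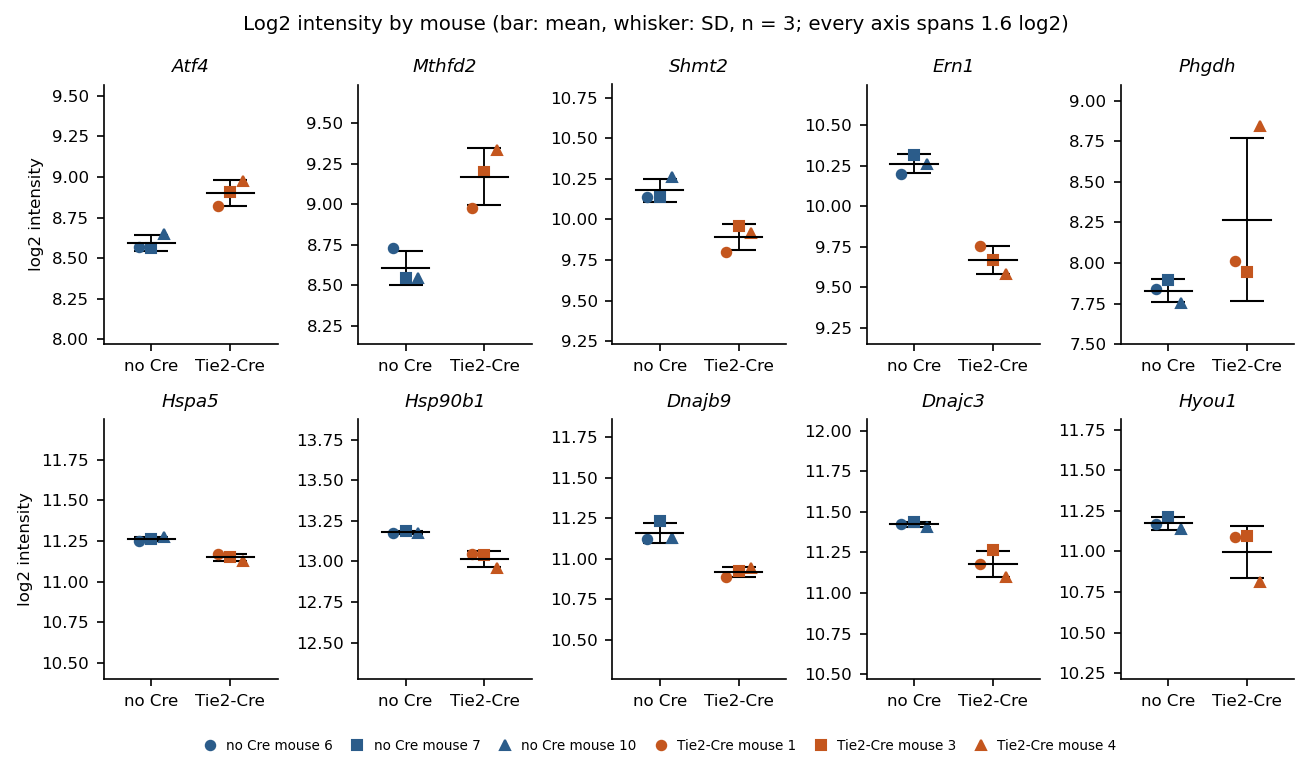
Log2 intensity in each mouse for 10 genes, with the mean and SD of the 3 mice of each group (no Cre left, Tie2-Cre right); every axis spans 1.6 log2 around the gene's own level. The 10 genes all come from the 19 of 36 whose groups did not overlap, so they do not stand for the 36. In the other 17 the groups overlapped, and 31.0% of all genes were apart. In Phgdh and Hyou1 Tie2-Cre mouse 4 lies away from mice 1 and 3.

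The ER chaperones lay slightly lower with Tie2-Cre, and none passed the test. Of 13 genes 0 were called by limma, and 4 had an unadjusted p under 0.05, where 24.9% of all genes did. The smallest adjusted p was 0.0535. The mean was lower with Tie2-Cre in 12 of the 13, against 51.1% of all genes, but in 9 of the 13 after the values were quantile normalized again. Groups were apart in 7 of the 13 genes (53.8%), all with the Tie2-Cre mice below, against 17.5% of all genes. The median SD of the chaperones was 0.021 without Cre and 0.047 with Tie2-Cre, against 0.089 and 0.10 over all genes. The median size of the change, regardless of sign, was 0.11 for the chaperones and 0.11 over all genes. What part the smaller spread had in the count of groups apart was not tested. The median change of the chaperones was -0.11, -0.050 without mouse 4, and the changes ran from -0.24 to 0.02. The lists that moved with group above, of pericyte (median change 0.41), macrophage (-0.15), mesothelial (-0.18) and fibroblast markers (median 0.017, with 3 higher and 1 lower of 8), were read in the same arrays, and their part was not tested.

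Hspa5 encodes BiP, the ER Hsp70 that also holds the stress sensors inactive, and lay at 11.17, 11.15 and 11.13 log2 with Tie2-Cre and at 11.25, 11.26 and 11.27 without Cre. The mice of each group lay close together and the groups did not overlap. The change was -0.11 (SE 0.062, 95% interval -0.25 to 0.03, limma adjusted p 0.317). Hsp90b1 encodes GRP94, the ER form of Hsp90, and lay at 13.05, 13.04 and 12.96 against 13.17, 13.19 and 13.17. All Tie2-Cre mice were below all no Cre mice, with a change of -0.16 (95% interval -0.31 to -0.016, limma adjusted p 0.156). Hyou1, an Hsp70-like exchange factor for BiP, lay at 11.09, 11.09 and 10.81 against 11.17, 11.21 and 11.14. Mouse 4 was lowest by 0.28 below the mean of mice 1 and 3, and the change was -0.17 (SE 0.091, adjusted p 0.292 by limma).

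The chaperones that differed most, Dnajb9 and Dnajc3, are J-domain cochaperones, which load clients onto BiP. The disulfide isomerase Pdia6 came next, with a change of -0.23. Dnajb9, or ERdj4, lay at 10.89, 10.93 and 10.94 log2 with Tie2-Cre and at 11.12, 11.23 and 11.13 without. Dnajc3, or p58IPK, lay at 11.18, 11.26 and 11.10 against 11.42, 11.44 and 11.41. In both genes all Tie2-Cre mice were below all no Cre mice. Their changes were -0.24 (SE 0.067, limma adjusted p 0.0535) and -0.24 (SE 0.070, limma adjusted p 0.0614). Both passed when dim genes were left out and when limma's trend and robust options were used (range over alternatives 0.00597 to 0.168 for Dnajb9 and 0.00705 to 0.162 for Dnajc3). Dnajb11, or ERdj3, also a J-domain cochaperone, differed by -0.02 (SE 0.063).

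Among the disulfide isomerases, Pdia6 lay at 11.01, 10.94 and 10.84 log2 with Tie2-Cre and at 11.18, 11.25 and 11.05 without, a change of -0.23 (95% interval -0.42 to -0.04, limma adjusted p 0.119) with the groups apart. Pdia3, which works on glycoproteins, differed by -0.05. With the trend and robust options, Hsp90b1 and Pdia6 also passed (ranges over alternatives 0.0103 to 0.303 and 0.0304 to 0.301). Of the lectin chaperones, Calr lay at 12.97, 12.92 and 12.82 against 12.99, 13.01 and 12.99 (change -0.09, limma adjusted p 0.480), with the groups apart. Canx differed by -0.04, with overlapping groups. Creld2, a stress-induced isomerase-like protein, differed by -0.11 (SE 0.096).

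Sdf2l1, a partner of ERdj3, lay at 10.07, 10.06 and 9.78 log2 with Tie2-Cre and at 9.98, 9.97 and 9.96 without. Mice 1 and 3 were above all no Cre mice and mouse 4 was below them, giving a change of -0.0031 (95% interval -0.21 to 0.21). Manf, a secreted ER stress protein, was the single chaperone with a higher mean with Tie2-Cre, by 0.02 (SE 0.063). The 7 chaperones with an ERSE in their windows differed by -0.24 to -0.04 between the groups, with a median of -0.11.

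The 4 genes of ER-associated degradation did not pass, with 0 called by limma and a median change of -0.08. Sel1l, the adaptor of the degradation complex, lay at 11.06, 10.95 and 10.93 log2 with Tie2-Cre and at 10.81, 10.84 and 10.72 without. All Tie2-Cre mice were above all no Cre mice, and the change was 0.19 (95% interval 0.03 to 0.36, limma adjusted p 0.142, 0.0371 to 0.334 over the alternatives). It was the single gene of the 4 with an unadjusted p under 0.05. Syvn1, the ubiquitin ligase HRD1 that binds SEL1L, differed the other way by -0.07 (SE 0.066), with the groups apart. Edem1, a mannosidase-like factor that hands glycoproteins to the complex, lay at 10.82, 10.84 and 10.84 against 10.97, 10.99 and 10.97, a change of -0.14 (adjusted p 0.201 by limma) that was -0.10 over the mean of its 2 probe sets. Herpud1, a ubiquitin-like membrane protein of the same complex, differed by -0.09 (SE 0.070).

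Ern1 held the smallest p of the 36 genes. It encodes IRE1 alpha, the sensor that splices Xbp1, and lay at 9.76, 9.67 and 9.58 log2 with Tie2-Cre and at 10.20, 10.32 and 10.26 without Cre. The lowest no Cre mouse was above the highest Tie2-Cre mouse. Ern1 fell by 0.59 (SE 0.074, 95% interval -0.76 to -0.42, limma adjusted p 0.00198), which is a signal that dropped by 33.6%, and stayed past the threshold in every alternative run. Its adjusted p ranged from 8.35e-05 to 0.0117 over them. Its promoter window (chr11:106487747-106488046, minus strand, GRCm38.p6) held none of the elements searched and is printed to set beside that of Hspa5.
Ern1: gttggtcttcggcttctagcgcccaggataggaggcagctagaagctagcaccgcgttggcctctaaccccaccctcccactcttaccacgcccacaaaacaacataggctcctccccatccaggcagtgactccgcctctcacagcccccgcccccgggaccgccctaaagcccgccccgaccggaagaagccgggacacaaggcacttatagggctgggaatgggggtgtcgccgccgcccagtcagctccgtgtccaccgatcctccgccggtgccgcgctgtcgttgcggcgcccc

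The other sensors did not pass. Eif2ak3, the gene of PERK, differed by -0.07 (95% interval -0.26 to 0.13, limma adjusted p 0.698), and Tie2-Cre mouse 1 was the lowest of the 6 at 8.23 log2. Atf6 differed by -0.14 (95% interval -0.33 to 0.05, limma adjusted p 0.355). Xbp1 lay at 10.69, 10.82 and 10.88 log2 with Tie2-Cre and at 10.78, 10.85 and 10.81 without (change -0.02, limma adjusted p 0.914). Groups overlapped in all 3.

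The arms were set against each other within each mouse as the mean deviation of their genes from the no Cre mean. The no Cre mice enter that reference themselves, so their deviations centre on it by construction, and those of the Tie2-Cre mice do not. The ATF4 branch deviated by 0.00038, 0.060 and 0.20 log2 in Tie2-Cre mice 1, 3 and 4 and by -0.012, 0.028 and -0.016 in no Cre mice 6, 7 and 10. The chaperones deviated by -0.082, -0.077 and -0.18 in the Tie2-Cre mice and by 0.0049, 0.024 and -0.029 in the no Cre mice. Mouse 4 thus had the highest ATF4 branch and the lowest chaperones. The difference between the arms was 0.082, 0.14 and 0.38 in mice 1, 3 and 4 and lay within -0.017 to 0.013 in the no Cre mice, while the mean over all genes stayed within -0.019 to 0.017 in every mouse. No test is given for these means, since the arms were chosen with results of these arrays known.

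**Figure D3:**
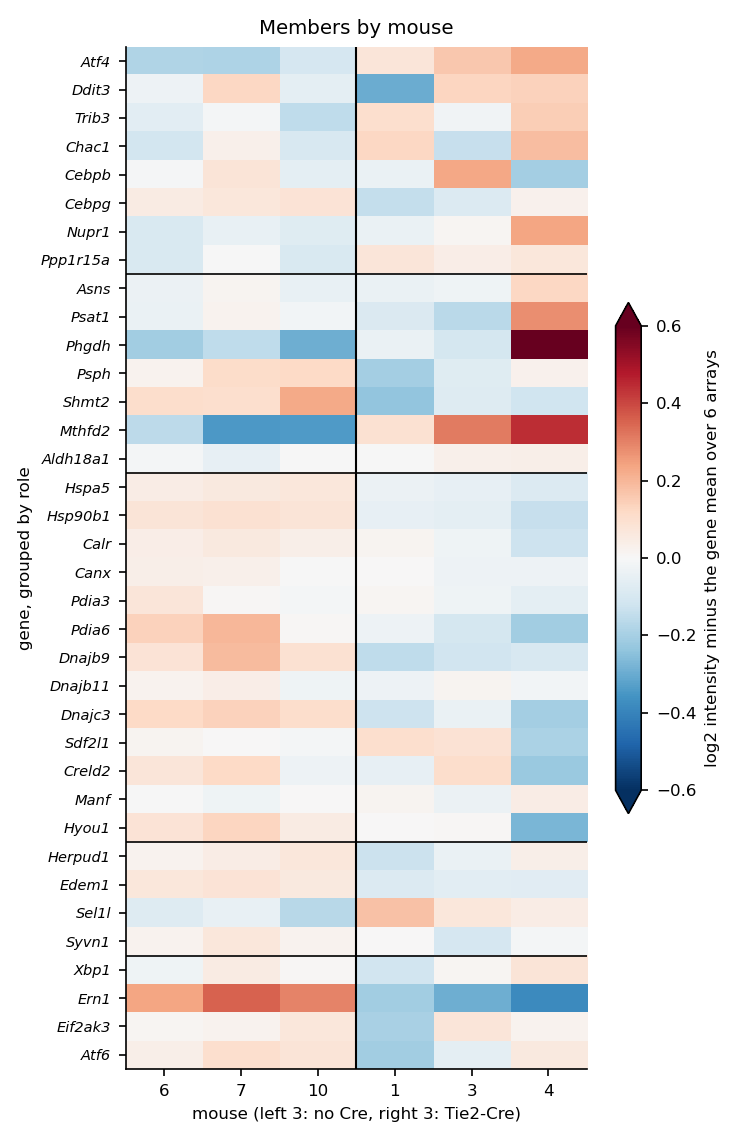
Log2 intensity of each of the 36 genes in each mouse minus the gene's mean over the 6 arrays, with no Cre mice on the left and Tie2-Cre mice on the right; horizontal lines part the regulators, enzymes, chaperones, degradation genes and sensors. Mouse 4 shows the highest Phgdh and Psat1 and the lowest Hyou1, Creld2 and Sdf2l1, and the Ern1 row parts the groups most clearly.

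Mouse 4 was the Tie2-Cre mouse farthest from its group's median in 7 of the 13 chaperones (53.8%), compared with 34.6% of all genes. In the ATF4 branch it was so in 5 of 15 genes (33.3%) and mouse 1 in 6, and over all 36 genes mouse 4 was so in 13 and mouse 1 in 15. Relative to the mean of mice 1 and 3 it was higher by 0.40 in Psat1, 0.25 in Nupr1, 0.24 in Mthfd2 and 0.16 in Asns. In Cebpb, of the same branch, mouse 4 was at -0.30, and in Mthfd2 mice 1 and 3 were themselves 0.22 apart. Mouse 4 was at -0.28 in Sdf2l1, -0.28 in Hyou1 and -0.25 in Creld2 on the same scale. Among amino acid transporters it was the farthest in 6 of 8 genes, higher by 0.54 in Slc7a5, 0.55 in Slc7a1 and 0.40 in Slc1a4 and at -0.48 in Slc7a11. What set this mouse apart in these genes was not tested.

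Other genes of the same pathways were read from lists chosen by function. Beside the counts of these lists, 12.0% of all genes were called, 4.78% higher and 7.17% lower. Of 8 measured amino acid transporters linked to ATF4, 1 was higher and 2 were lower, with a median of 0.18. Slc3a2, the shared heavy chain of several transporters, lay at 11.13, 11.17 and 11.22 log2 with Tie2-Cre and at 10.82, 10.81 and 10.79 without, and rose by 0.37 (SE 0.063, limma adjusted p 0.00827). Slc7a11, the cystine transporter that pairs with it, lay at 6.97, 7.05 and 6.53 against 8.11, 8.27 and 8.09 and fell by 1.31 (SE 0.14, limma adjusted p 0.000849). The groups were far apart in Slc7a11, in the direction opposite to its heavy chain. That change is read from the brighter of its 2 probe sets. Over the alternatives, which include the mean of probe sets, the change of Slc7a11 ran from -1.405 to -0.74. Slc38a2, a carrier of small neutral amino acids, fell by 0.41 (limma adjusted p 0.00564). Slc1a4 (0.42, limma adjusted p 0.0501) and Slc7a5 (0.25, adjusted p 0.331) did not pass. The list held 2 higher genes without mouse 1 and under 6 other alternatives (both filters on dim genes, both scalings, the mean of probe sets and array weights), 3 with trend and robust, and 0 under an unadjusted p with a 1.5-fold change.

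Of 18 aminoacyl-tRNA synthetases, which charge tRNAs for translation, 1 was higher and 2 were lower, with a median of -0.14. That was 16.7% called, against 12.0% of all genes. Yars, for tyrosine, rose by 0.37 (limma adjusted p 0.00901), Rars, for arginine, fell by 0.53 (adjusted p 0.00611), and Gars, for glycine, fell by 0.32 (adjusted p 0.0150). The call of Gars was lost without mouse 3, 6, 7 or 10, and the list held 4 lower genes without the dimmest genes and 5 with trend and robust. Of 14 further stress-induced targets of ATF4 and CHOP, 1 was higher and 4 were lower (35.7% called, against 12.0% of all genes), with a median of -0.07. The transcription factor Jdp2 rose by 0.51 (limma adjusted p 0.0101). Ero1a, an oxidase that supplies disulfide bonds, fell by 0.63 (limma adjusted p 0.000854), Ddit4, an inhibitor of mTORC1 signaling, by 0.79 (adjusted p 0.00253) and the death receptor gene Tnfrsf10b by 0.34 (adjusted p 0.0253). The count of lower genes in that list was 2 without mouse 1, 6 or 7 and under the 1.5-fold rule. It was also 2 when the probe sets with several symbols or none were added.

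In the further enzymes of serine, glycine and one-carbon metabolism 1 of 9 genes was lower and 0 were higher, and this was Mthfd1, the cytosolic folate enzyme (change -0.37, limma adjusted p 0.0112). In the enzymes of proline, glutamate and arginine metabolism 1 of 9 was lower and 0 were higher, and this was glutamine synthetase, Glul (change -0.92, limma adjusted p 0.0022). The 11 genes of eIF2, its exchange factor eIF2B and the eIF2 kinases held 1 higher and 2 lower, with a median of -0.02. The higher gene was Eif2s3y, a Y-linked subunit of eIF2 (change 4.14, limma adjusted p 9.90e-07). Eif2s2 and Eif2b1, subunits of eIF2 and eIF2B, fell by 0.39 and 0.28 (limma adjusted p 0.0377 and 0.0494). Eif2s2 lost its call without mouse 1, 4, 7 or 10 and Eif2b1 without mouse 1, 3, 6, 7 or 10.

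The related ER lists held further lower genes. Of 16 further folding and disulfide enzymes 6 were lower and 0 higher, with a median of -0.24, beside 7.17% of all genes lower. They were Pdia5, Fkbp11, Dnajc10, P4hb, Ero1b and Tmx1. Pdia5, a disulfide isomerase, fell by 0.55 (SE 0.066, limma adjusted p 0.00156), Fkbp11, a prolyl isomerase of secretory cells, by 0.72 (SE 0.099, limma adjusted p 0.00287) and Dnajc10, a disulfide reductase, by 0.54 (SE 0.076, limma adjusted p 0.00316). The count was 6 with each mouse left out, 10 without the dimmest genes or with trend and robust, and 1 under the unadjusted p with a 1.5-fold change. Of 20 genes of ER translocation and N-glycosylation 7 were lower and 0 higher, with a median of -0.23. The count was 4 when mouse 1, 4, 6, 7 or 10 was left out or the probe sets with several symbols or none were added. It was 5 without mouse 3, 12 with trend and robust and 2 under the 1.5-fold rule. Spcs3, Sec11c and Spcs1, subunits of the signal peptidase complex that trims secretory proteins, fell by 0.66, 0.68 and 0.46 (limma adjusted p 0.00125, 0.00224 and 0.00435). How these lists differ from the chaperones was not tested.

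Of 14 further ER-associated degradation genes 1 was lower, the lectin Erlec1 (change -0.30, limma adjusted p 0.0325), with a median of -0.11, and that call was lost without mouse 1, 4, 6, 7 or 10. Heat shock genes of the cytosol and mitochondria, which answer to other factors, held 3 lower and 0 higher of 11, with a median of -0.24. Hspa1b, an inducible Hsp70, fell by 0.87 (limma adjusted p 0.00377), though its near-identical copy Hspa1a can share its probes. Hsph1, an Hsp70 exchange factor, fell by 0.54 (limma adjusted p 0.00901) and Hspd1, the mitochondrial Hsp60, by 0.42 (adjusted p 0.0127). Over all 130 genes of these lists 4 were higher and 29 lower (25.4% called), beside 12.0% of all genes called, 4.78% higher and 7.17% lower. Xist and the pericyte, fibroblast, macrophage and mesothelial markers moved with the groups here as well, and their part in these counts was not tested.

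**Figure D4:**
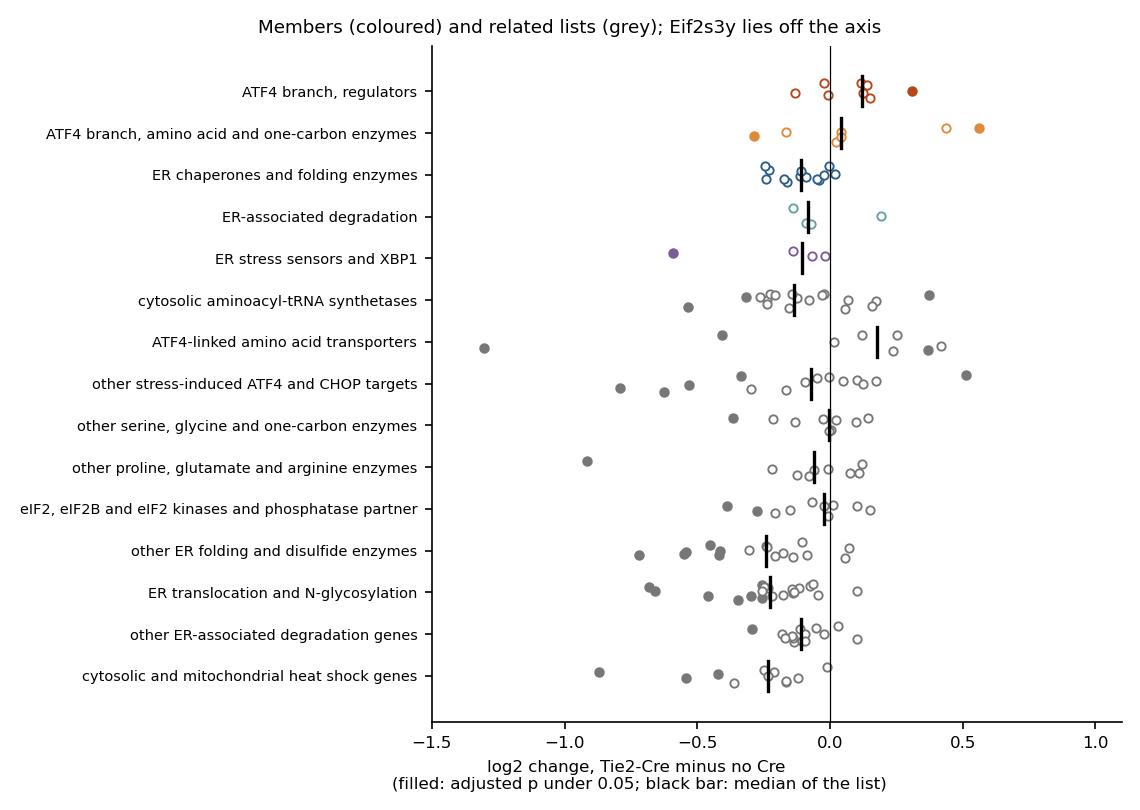
Log2 change of every gene, Tie2-Cre minus no Cre, in the 5 groups of listed genes (coloured) and the 10 related lists (grey); filled points passed an adjusted p of 0.05 and black bars are list medians, with Eif2s3y at 4.14 beyond the axis. The medians of the further folding enzymes (-0.24), ER translocation genes (-0.23) and heat shock genes (-0.24) lie left of that of the chaperones (-0.11).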

How the data were processed

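RNA of 6 mice was read on Affymetrix Mouse Gene 2.0 ST arrays. The authors deposited RMA values (background correction, quantile normalization and probe summary) made with Expression Console by Affymetrix, per the submitters' processing notes; no version is given in the sources used here. These deposited values were intensities on a linear scale (5.13 to 17822), and log2 was taken. Without detection calls, dim genes keep a background that shrinks differences. Of 41345 probe sets, 23521 had 1 symbol, 1814 several and 16010 none. The brightest probe set of a gene was kept over the 6 arrays (1341 set aside), leaving 22180 genes. Groups were compared with limma 3.58.1 (lmFit, eBayes, two-sided) in R 4.3.3 (files read by version 1.17.8 of data.table), tested on simulated data, and Benjamini-Hochberg adjusted over all genes. The number of arrays limits precision. All listed genes are named, and of each related list up to 3 genes with the smallest p in each direction among those called; others, such as Slc1a4, Slc7a5, P4hb, Ero1b, Tmx1, Hspa1a and single markers, were named after their values were seen. Members and lists were chosen with earlier results of these data known. Alternatives changed the probe sets entered, filters on dim genes, scaling, averaging of probe sets, limma options, array weights, the threshold and each mouse. The probe sets added in the first of these were those with several symbols or none, and the 1341 set aside stayed out of it. RefSeq promoters (GRCm38.p6) were matched by symbol.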

Additional observations from a re-analysis of the deposited data

How the results depend on the processing

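The 2652 genes called over all became 975 under an unadjusted p with a 1.5-fold change and 1586 to 2156 with 1 mouse left out. The 2 higher ATF4 branch genes became 1 when the probe sets with several symbols or none were also entered. They became 0 under the 1.5-fold rule and 1 to 2 with 1 mouse left out. The 1 lower gene became 0 with those probe sets added, after quantile normalization again, with centred arrays, under the 1.5-fold rule and with any mouse left out (0 to 0). The 0 lower chaperones became 2 with a minimum mean log2 of 5, 2 without the dimmest genes and 4 with trend and robust. The ATF4 branch median ran from 0.048 to 0.11 and the chaperone median from -0.12 to -0.050 with 1 mouse left out (-0.050 without mouse 4). Quantile normalization again turned the sign of Ddit3 (0.00042), Cebpb (0.014), Canx (0.0053), Pdia3 (0.016) and Sdf2l1 (0.013), and array weights that of Cebpb (0.015) and Sdf2l1 (0.0063). With 1 mouse left out, ranges that crossed 0 were -0.095 to 0.12 for Ddit3, -0.13 to 0.094 for Cebpb, -0.013 to 0.069 for Asns, -0.11 to 0.11 for Psat1, -0.054 to 0.091 for Sdf2l1, -0.062 to 0.034 for Xbp1 and -0.12 to 0.014 for Eif2ak3. The cause of these shifts was not tested. Leaving out a mouse also left fewer samples, and the filters on dim genes also changed the number of genes adjusted over. The single genes followed under the alternatives were the 36 measured members, 32 of them not called at first, and related genes picked because they were called. Of their values, 826 kept their direction and side of the threshold, 62 lost the call, 9 gained it and 18 changed sign. No paired analysis was possible because the mouse numbers 1, 3 and 4 are not shared with 6, 7 and 10. Signal over background is unknown for these arrays.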
